A study of Rattus norvegicus with 8 samples.

Results

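A set of 7 miRNAs often studied in fat and energy metabolism, of 758 rat miRNAs on the array, was followed through rat synovial tissue after knee surgery. The set was taken by name and holds rno-miR-103-3p, rno-miR-107-3p, rno-miR-193a-3p, rno-miR-193b-3p, rno-miR-365-3p, rno-miR-378a-5p and rno-miR-378b, written below without the rat prefix. Each had 2 probes, and all probes carrying one of these names were used on all 8 arrays. The samples came from the left knees of Sprague-Dawley rats. In the ACLT group (4 arrays) the anterior cruciate ligament had been transected, which destabilizes the joint and serves as a surgical model of osteoarthritis. In the sham group (4 arrays) the joint was opened and the ligament exposed without being cut. Synovium was taken from the side opposite the incision. Incision, patellar dislocation and closure were thus common to both groups, and no unoperated knee was analysed here. The sampling time is given as 14 days in the title, 2 weeks in the protocol and 7 days in the design text. Whether the numbered replicates are different animals is not said in the labels. The p-values therefore cover only sample-to-sample spread, part or all of which could be technical.

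miRNAs are short RNAs that guide the silencing complex to messenger RNAs, chiefly through pairing of the seed near their 5′ end. miR-103 and miR-107 lie in introns of pantothenate kinase genes, which start coenzyme A synthesis, and are known as regulators of insulin sensitivity in liver and fat. miR-193 and miR-365 lie close together in the genome and have been studied in brown fat differentiation, while miR-378a lies within Ppargc1b, a coactivator of mitochondrial metabolism, and is abundant in muscle and brown fat. The synovium borders the infrapatellar fat pad and, at its margins, skeletal muscle. In RNA from whole tissue, fewer cells of a type and less RNA per cell cannot be told apart. None of these miRNAs is made by adipocytes alone, so the name fat and metabolic describes the literature on them and was not tested as a cell type.

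The mature sequences of the members whose relations matter for reading the probes are shown 5′ to 3′ as RefSeq gives them for the build GRCr8, with the seed (bases 2 to 8) in capitals. By name, 6 of 7 members were matched to RefSeq, and miR-378b was not among them.
miR-103-3p: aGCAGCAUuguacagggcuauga
miR-107-3p: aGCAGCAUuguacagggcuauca
miR-193a-3p: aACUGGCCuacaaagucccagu
miR-193b-3p: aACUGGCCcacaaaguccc
miR-365-3p: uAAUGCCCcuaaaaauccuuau
miR-103-3p lies at chr3:138963278-138963300 on the plus strand, within Pank2, and miR-107-3p at chr1:241750431-241750453 on the minus strand, within Pank1. A second miR-103 precursor, Mir103a1, lies within Pank3. Both share 1 seed and differ over 23 bases by a single substitution, G22C, counted from the 5′ end of miR-103-3p. Whether the probes tell them apart was not tested. miR-193a-3p (chr10:65170370-65170391, plus strand) and miR-193b-3p (chr10:1824994-1825012, plus strand) also share a seed and differ by U9C over the 19 bases they have in common. miR-365-3p lies at chr10:65184271-65184292 on the plus strand, 13880 bases after miR-193a-3p. Among the 685 array miRNAs with a RefSeq sequence, each of these seeds occurred in no miRNA outside the pairs just named.

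The members fell into 3 levels of detection. miR-103-3p, miR-107-3p, miR-193a-3p and miR-378b were detected by the scanner software on all 8 arrays. miR-365-3p was detected on 4 of 4 ACLT and 3 of 4 sham arrays and miR-378a-5p on 3 of 4 ACLT and 1 of 4 sham arrays. miR-193b-3p was detected on none. Fisher's exact test, two-sided, gave p = 1 for miR-365-3p and p = 0.486 for miR-378a-5p (adjusted p = 1 for both, over 96 miRNAs detected on some arrays only, of which 0% passed). Of the opposite arms of these hairpins, 6 were looked up (miR-103-1-5p, miR-103-2-5p, miR-107-5p, miR-193a-5p, miR-193b-5p and miR-365-5p), and these were detected on 0 arrays. The opposite arm of miR-378a-5p, miR-378a-3p, was not among those looked up. Testing was limited to 113 miRNAs that every array of 1 group or of both detected, which included 5 of the 7 members and left out miR-193b-3p and miR-378a-5p.

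The arrays differed in brightness and in the level of muscle miRNAs. Every array was scaled to its 75th percentile over a common set of 136 clearly measured probes, and this percentile ran from 289 to 1185, a 4.10-fold range, and 111 to 184 miRNAs were detected per array. ACLT replicates 1 and 2 and sham replicate 4 were the bright arrays. All 3 mesenchymal miRNAs listed (miR-199a-5p, miR-199a-3p and miR-214-3p) were detected on all 8 arrays and 0 of 7 epithelial miRNAs on any, while 2 of 2 cartilage, 4 of 6 leukocyte, 2 of 3 erythroid and 1 of 3 vascular miRNAs were detected throughout. Of 10 striated muscle miRNAs, 5 were detected on all 8 arrays and 3 on none (miR-133b-5p, miR-208a-3p and miR-208b-3p).

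None of the 5 tested members separated ACLT from sham synovium. By limma with Benjamini-Hochberg adjustment, the threshold of 0.05 on the adjusted p was passed by 0 of 113 miRNAs (0%). At an unadjusted p under 0.05 there were 8 (7.08%), and 0 of them were members. Of the 5 members, 2 had a higher and 3 a lower mean after ACLT, with a median log2 difference of -0.0054, against 38 higher and 73 lower and a median of -0.07 over all 113. The members' median is the value of miR-365-3p, 1 of the 3 lower members, which is set by the floor on 7 of 8 arrays. For every tested member the values of the groups overlapped, as they did for all 113 miRNAs (0% without overlap).

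**Figure D1:**
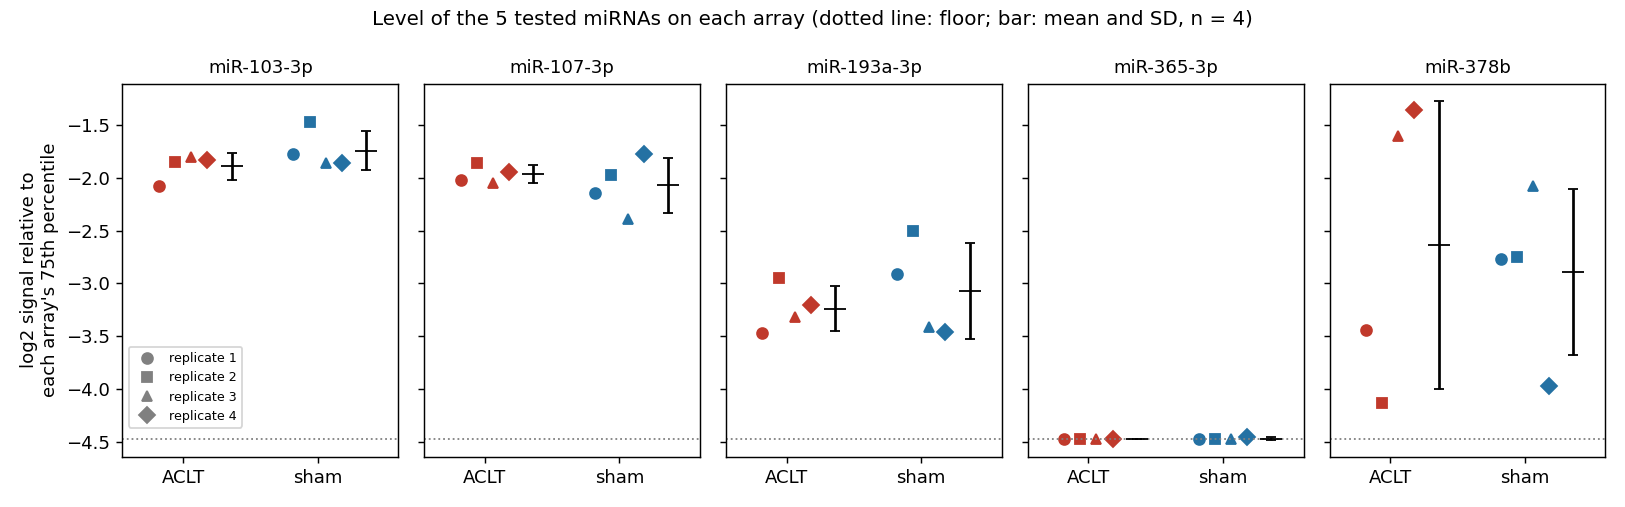
Scaled log2 signal (vertical axis) of the 5 tested miRNAs on each ACLT (red) and sham (blue) array, with the replicate as symbol, and mean and SD of the group (n = 4). The groups overlap in every panel, miR-365-3p sits at the floor, and miR-378b spans 6.88-fold.

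miR-103-3p, whose known targets include messages for insulin signalling and for the Dicer enzyme, varied little across arrays after scaling, over a 1.52-fold range. Relative to the array's 75th percentile, its log2 signal was -2.08, -1.85, -1.81 and -1.83 in ACLT replicates 1 to 4, against -1.77, -1.47, -1.86 and -1.86 on sham replicates 1 to 4. ACLT replicate 1 was the lowest and sham replicate 2 the highest array, and the other 6 lay within a narrow band. The ACLT mean was -1.89 ± 0.13 and the sham mean -1.74 ± 0.18 (SD, n = 4 each). The log2 difference was -0.15 (SE 0.11, 95% interval -0.41 to 0.11, limma adjusted p = 0.806), that is 1.11-fold lower. In linear terms the interval runs from 0.752 to 1.08 times the sham level. The second, dimmer probe gave -0.24.

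Spots of the brightest miR-103-3p probe agreed within an array with a median coefficient of variation of 6.11% (2.59% to 9.38%). The unscaled signal ran from 84.5 on sham replicate 1 to 327 on sham replicate 4, close to the range of brightness. Its second probe ranged from 44.4 to 118 and was, relative to the percentile, lowest on the 3 bright arrays (-3.51, -3.22 and -3.55 on ACLT replicates 1 and 2 and sham replicate 4) and between -2.80 and -2.42 on the other 5. On the brightest probe these arrays overlapped with the other 5.

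miR-107-3p, which shares the seed of miR-103-3p, was at -2.02, -1.86, -2.05 and -1.94 on the ACLT arrays and -2.14, -1.98, -2.39 and -1.78 on the sham arrays. Sham replicates 3 and 4 were the extremes, with all ACLT arrays between them. The means were -1.97 ± 0.09 and -2.07 ± 0.26 (SD, n = 4 each), and the difference was 0.10 (SE 0.13, 95% interval -0.21 to 0.42, limma adjusted p = 0.840), or 1.07-fold higher after ACLT. Without sham replicate 3 it was -0.0019. The second probe gave 0.03.

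The scaled levels of miR-103-3p and miR-107-3p, 1 base apart, had a relation over the 8 arrays that depended on the scaling. As reported, Pearson's r was 0.05 (exact permutation p = 0.905) and Spearman's rho -0.05 (exact permutation p = 0.935), with adjusted p-values of 0.905 and 0.935 over 9 relations. Without sham replicates 3 and 4, the arrays farthest from the median, r was 0.01. With unscaled signals, in which both followed the brightness of the array, r was 0.99 (exact permutation p = 0.00082, adjusted p = 0.00402) and rho 0.95 (exact permutation p = 0.00114, adjusted p = 0.0103). Without ACLT replicate 2 and sham replicate 4 it was 0.94. The exact permutation test also passed with the percentile over all probes (r = 0.97, adjusted p = 0.00335) and with spike-in scaling (r = 0.89, adjusted p = 0.00826). It did not pass without muscle probes in the percentile (r = 0.25, adjusted p = 0.611) or with quantile normalization (r = 0.28, adjusted p = 0.630).

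Relatives of the pair by an offset seed were examined as a group. The miR-15/16 family, known for restraining the cell cycle, carries the first 7 bases of miR-103-3p as its own seed (bases 2 to 8). This is seen in miR-16-5p (chr2:155555343-155555364, plus strand) and miR-15b-5p (chr2:155555197-155555218, plus strand).
miR-16-5p: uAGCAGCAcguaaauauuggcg
miR-15b-5p: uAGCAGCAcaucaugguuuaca
All 6 listed members were tested and 0 passed limma's adjusted threshold. The difference was negative for 5 and positive for 1, with a median of -0.18 and a range from -0.26 (miR-15a-5p) to 0.02 (miR-15b-5p). The difference of miR-103-3p lay within this range and that of miR-107-3p above it.

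miR-193a-3p, the guide arm of a hairpin studied in adipocyte differentiation, was more variable. It was at -3.47, -2.95, -3.32 and -3.21 on the ACLT arrays and -2.91, -2.50, -3.41 and -3.46 on the sham arrays. Sham replicate 2 was the highest array, and sham replicates 3 and 4 lay level with the lowest ACLT arrays. The means were -3.24 ± 0.22 and -3.07 ± 0.45 (SD, n = 4 each), and the difference was -0.17 (SE 0.24, 95% interval -0.73 to 0.39, limma adjusted p = 0.840), 1.12-fold lower after ACLT. Without sham replicate 2 it was 0.02. Spots of its brightest probe varied by 2.59% to 13.4% within an array, which is technical noise alone. The second probe was well above background on ACLT replicate 2 and sham replicate 4 only and at the floor after scaling.

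miR-193b-3p, which differs from it by 1 base of the common stretch, gave no signal. Its brightest probe read between -0.955 and 1.54 linear units on the 8 arrays, where the lowest probe signal well above background was 13.1 to 17.3, depending on the array. No fold can be given for miR-193b-3p.

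miR-365-3p, the neighbour of miR-193a-3p on chromosome 10, was close to background. Its brightest probe read 27.3, 35.2, 14.7 and 11.4 units in ACLT replicates 1 to 4, against 10.3, 14.1, 14.1 and 54.0 on sham replicates 1 to 4. The 3 arrays above 20 units are the 3 bright ones, and it was well above background on these alone. After scaling it stood at the floor of -4.48 on 7 of 8 arrays and at -4.45 on sham replicate 4, so its difference of -0.0054 (SE 0.04, 95% interval -0.10 to 0.09, limma adjusted p = 0.981) is set by the floor. With a floor 4 times lower the difference was -0.19, and in the authors' value table, which sets undetected miRNAs to 0.1, it was 1.72. The scaled level of miR-365-3p could therefore not be compared with that of its neighbour miR-193a-3p, and miR-365-3p was left out of the correlations.

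**Figure D2:**
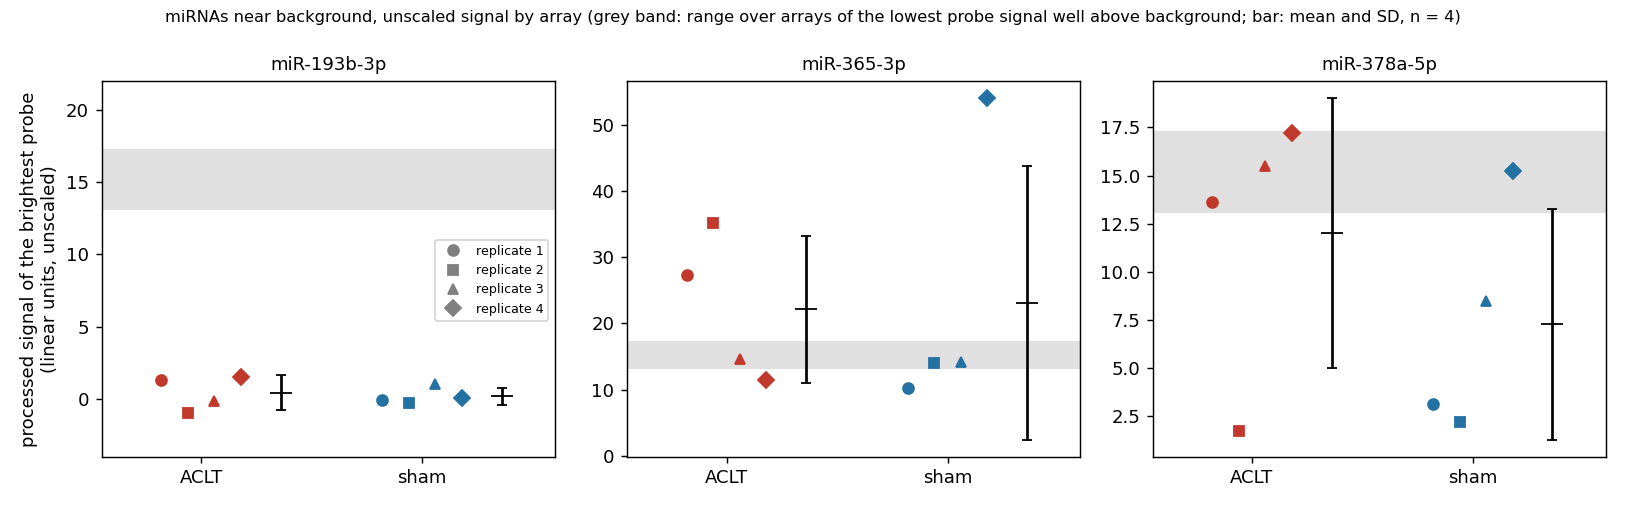
Unscaled processed signal (vertical axis, linear units, a separate scale in each panel) of the brightest probe of miR-193b-3p, miR-365-3p and miR-378a-5p on each array, with mean and SD (n = 4) and a grey band for the lowest signals well above background (13.1 to 17.3 over arrays). miR-193b-3p lies below the band on all 8 arrays, and miR-365-3p lies above it on ACLT replicates 1 and 2 and sham replicate 4.

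miR-378a-5p, the opposite arm of the muscle-rich miR-378a-3p, was also near background but in another pattern. Its brightest probe read 13.6, 1.73, 15.5 and 17.2 units in ACLT replicates 1 to 4, against 3.15, 2.22, 8.47 and 15.2 on sham replicates 1 to 4. It was well above background on ACLT replicate 4 and sham replicate 4 only, so the lower values have no order. The unscaled signal of miR-1-3p, a miRNA of skeletal and heart muscle, was 1229, 30.7, 1050 and 1266 units on the ACLT arrays and 158, 101, 532 and 835 on the sham arrays. The 4 arrays on which miR-378a-5p was detected had the 4 highest unscaled signals of miR-1-3p, as of miR-1b, miR-133b-3p and miR-133a-5p. For miR-206-3p and miR-133a-3p, sham replicate 3, without detected miR-378a-5p, read above sham replicate 4 (651 against 446 and 56.7 against 27.7 units). After scaling, miR-1-3p was also higher on sham replicate 3 than on sham replicate 4 (0.59 against -0.50). Exactly 1 other miRNA of the array had the same set of detected arrays, and this was miR-499-5p, a miRNA of slow muscle fibres from the striated muscle list. miR-499-5p was near background too, at 3.04 to 20.5 units. Its brightest probe was well above background on 1 ACLT and 1 sham array, and after scaling it stood at the floor on 6 of 8 arrays.

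After scaling, miR-378b, placed beside miR-378a here by its name only, was the most variable of the 5 tested members, with a 6.88-fold range. Unscaled, its 2.81-fold range was the narrowest of the 5, the others spanning 3.87-fold (miR-103-3p) to 5.27-fold (miR-107-3p). The scaled log2 signal of miR-378b was -3.45, -4.14, -1.61 and -1.36 in ACLT replicates 1 to 4, against -2.77, -2.75, -2.08 and -3.97 on sham replicates 1 to 4. ACLT replicates 3 and 4 were the highest of all arrays and ACLT replicate 2 the lowest, so the ACLT group enclosed the whole sham group. The means were -2.64 ± 1.37 and -2.89 ± 0.79 (SD, n = 4 each), and the difference was 0.25 (SE 0.73, 95% interval -1.47 to 1.98, limma adjusted p = 0.955), which in linear terms allows from 0.36 to 3.96 times the sham level. It turned to -0.09 when ACLT replicate 3 was left out, to -0.17 for ACLT replicate 4 and to -0.10 for sham replicate 4.

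Spots of the brightest miR-378b probe varied by 2.67% to 12.01% within an array (median 4.81%). The second probe gave the same order at both ends, with -1.99 and -1.67 on ACLT replicates 3 and 4 and the floor on ACLT replicate 2 and sham replicate 4, and a difference of 0.30. Unscaled, miR-378b read 73.2, 62.3, 116 and 119 units on the ACLT arrays and 42.5, 47.0, 83.6 and 75.7 on the sham arrays. On sham replicate 4, the brightest array, it was below the value of ACLT replicates 3 and 4, which were among the dimmer ones.

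The levels of the members were then set against the striated muscle miRNAs. The mean log2 level of the 5 tested muscle miRNAs (miR-1-3p, miR-1b, miR-206-3p, miR-133a-5p and miR-133b-3p) was 0.17, -4.35, 1.47 and 1.77 in ACLT replicates 1 to 4, against -0.85, -1.67, 0.33 and -0.91 on sham replicates 1 to 4. ACLT replicate 2 had the least and ACLT replicates 3 and 4 the most. The floor was reached on ACLT replicate 2 by miR-133a-5p, miR-206-3p and miR-1-3p.

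miR-378b was high on the arrays with much muscle miRNA. Pearson's r over the 8 arrays was 0.80 (exact permutation p = 0.0129) and Spearman's rho 0.83 (exact permutation p = 0.0154). Neither passed after adjustment over 9 relations, at adjusted p = 0.0586 and 0.138. Among the ACLT arrays the order of miR-378b was that of the muscle level, from replicate 2 through 1 and 3 to 4, and sham replicate 3 was the highest sham array in both. The orders parted elsewhere: sham replicate 2 had the lowest muscle level of the sham arrays and sham replicate 4 the lowest miR-378b. ACLT replicate 1 had more muscle miRNA than sham replicates 1 and 2 (0.17 against -0.85 and -1.67) and less miR-378b (-3.45 against -2.77 and -2.75). Without ACLT replicates 2 and 4, the arrays farthest from the median muscle level, r was 0.60 (exact permutation p = 0.214), so the relation rests in part on those arrays. With unscaled signals r was 0.74 (exact permutation p = 0.0429, adjusted p = 0.0771) and rho 0.81 (exact permutation p = 0.0218, adjusted p = 0.049), and without ACLT replicate 2 and sham replicate 2 r was 0.88.

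**Figure D3:**
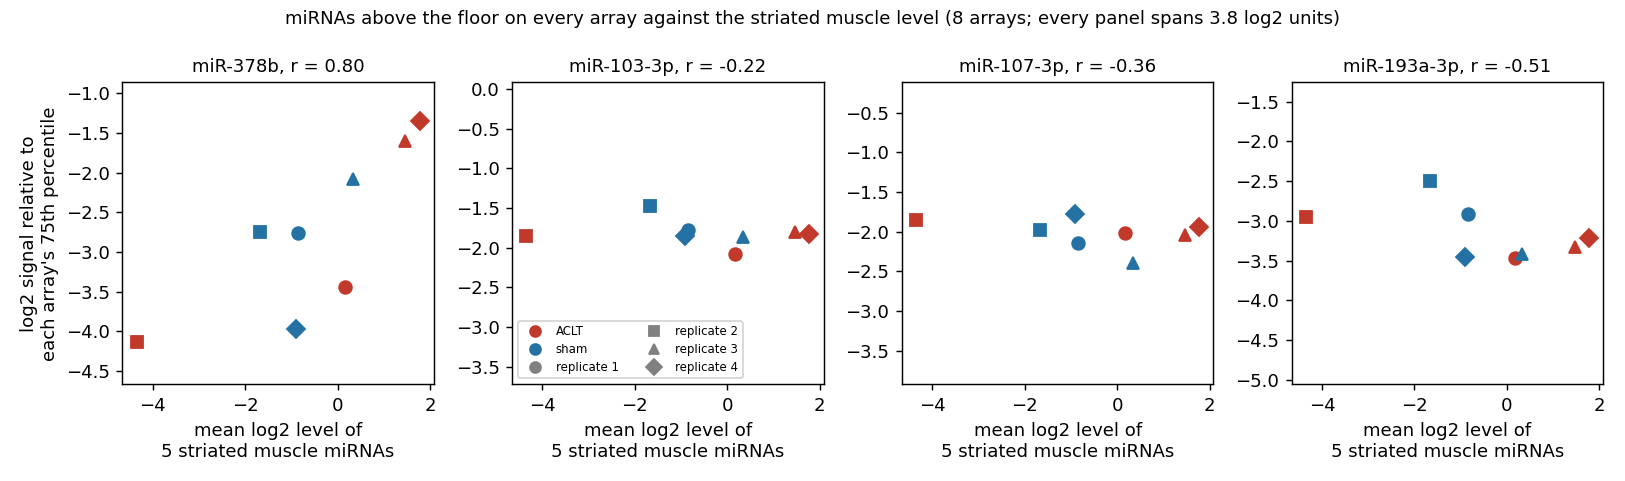
Scaled log2 signal of miR-378b, miR-103-3p, miR-107-3p and miR-193a-3p (vertical axes, equal spans) against the mean log2 level of 5 striated muscle miRNAs (horizontal axis) on the 8 arrays. miR-378b runs from -4.14 on the array with the least muscle miRNA to -1.36 on that with the most, while the other members stay nearly level.

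The other members had correlations below 0 that did not pass. Pearson's r with the muscle level was -0.22 for miR-103-3p, -0.36 for miR-107-3p and -0.51 for miR-193a-3p (exact permutation p = 0.586, 0.368 and 0.204, adjusted p = 0.659, 0.508 and 0.459), with rho of -0.14, -0.43 and -0.36 (exact permutation p = 0.752, 0.299 and 0.389, adjusted p = 0.846, 0.449 and 0.501). Without ACLT replicates 2 and 4 the r values were -0.55, -0.36 and -0.66. The sign for miR-103-3p and miR-107-3p depended on the scaling. With the muscle probes left out of the percentile, r was 0.63 and 0.30. With quantile normalization r was -0.91 for miR-103-3p and -0.81 for miR-193a-3p, and for these the exact permutation test passed (adjusted p = 0.00848 and 0.0304). It also passed for miR-193a-3p with spike-in scaling, at r = -0.89 (exact permutation, adjusted p = 0.00982). There r was -0.74 for miR-103-3p and -0.68 for miR-107-3p (exact permutation, adjusted p = 0.0626 and 0.0913). Low p-values were common under that scaling. In the slope fit described below, a limma unadjusted p of 0.0484 ranked only 51 of 108 miRNAs.

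To place miR-378b among all miRNAs, each of the 108 tested miRNAs outside the muscle list was fitted with group and muscle level together, a fit chosen after the levels of miR-378b had been seen. The slope of miR-378b was 0.43 log2 units per log2 unit of muscle level (SE 0.13, 95% interval 0.10 to 0.75, unadjusted p = 0.0175, limma adjusted p = 0.258). This was the highest slope of the 108, of which 39.8% were positive. By limma's unadjusted p miR-378b ranked 7, and 13 miRNAs (12%) had a negative slope at an unadjusted p under 0.05. Of the 108, 0% passed an adjusted p of 0.05 and 14.8% an unadjusted p of 0.05, and 3 miRNAs (2.78%) had a positive slope at that unadjusted p, the others being miR-30a-5p and miR-30c-5p. The slope of miR-378b was the highest in all 12 fits run, which were 4 scalings and 8 fits that each left out 1 array, and it ran from 0.20 with no scaling to 0.81 without ACLT replicate 2. These fits share most of their arrays. Limma's adjusted p ran from 0.103 to 0.861 in the alternatives. The unadjusted p was 0.0657 without ACLT replicate 2 and 0.0614 without ACLT replicate 4. By unadjusted p miR-378b ranked 51 with spike-in scaling. The slopes of miR-103-3p, miR-107-3p and miR-193a-3p were -0.01, -0.04 and -0.08 (SE 0.03, 0.04 and 0.06).

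With the muscle level as a covariate the ACLT difference of miR-378b was 0.03 (limma adjusted p = 1), that of miR-103-3p -0.14, of miR-107-3p 0.13 and of miR-193a-3p -0.12. The rows of the slide, each with 2 arrays of each group, gave opposite signs for miR-378b, and both the muscle level and brightness differed between the groups within them. In row 1 (replicates 1 and 2) the difference of miR-378b was -1.03 (limma adjusted p = 0.199) and that of the muscle level -0.83. In row 2 (replicates 3 and 4) they were 1.54 (limma adjusted p = 0.813) and 1.91. The 75th percentile was 797 and 1097 on the ACLT arrays of row 1 against 289 and 317 on its sham arrays, and 353 and 305 against 353 and 1185 in row 2. The parts of muscle level and brightness in these signs were not tested. miR-103-3p differed by -0.34 and 0.04 and miR-193a-3p by -0.50 and 0.17 within the rows, and miR-107-3p by 0.12 and 0.09.

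The scaled level of miR-378b was also set against brightness. Its scaled level was lower on arrays with a higher 75th percentile (r = -0.85, exact permutation p = 0.013, adjusted p = 0.0586; rho = -0.67, exact permutation p = 0.0831, adjusted p = 0.249), with r of -0.61 without ACLT replicate 2 and sham replicate 4. Scaling divides the signal by this same percentile, so a signal that does not follow brightness gives a negative r after scaling. The permutation p does not allow for this, here or for the other members. With unscaled signals the relation of miR-378b with brightness was r = -0.03 (exact permutation p = 0.935, adjusted p = 0.935) and rho = 0.10 (exact permutation p = 0.840, adjusted p = 0.945). Muscle level and brightness were themselves related at r = -0.54 (exact permutation p = 0.171; rho = -0.40, exact permutation p = 0.327), and their parts in the level of miR-378b were not tested separately. The scaled levels of miR-103-3p, miR-107-3p and miR-193a-3p had r of -0.49, 0.61 and -0.35 with brightness (exact permutation p = 0.294, 0.107 and 0.395, adjusted p = 0.508, 0.320 and 0.508; rho = -0.69, 0.50 and -0.62, exact permutation p = 0.0694, 0.216 and 0.115, adjusted p = 0.249, 0.389 and 0.259). Without ACLT replicate 2 and sham replicate 4 these r values were -0.71, 0.10 and -0.53. Their unscaled signals had r of 0.98, 0.99 and 0.92 (exact permutation p = 0.00094, 0.00134 and 0.00427, adjusted p = 0.00402, 0.00402 and 0.0096).

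The miRNAs most like each member were sought among 74 tested miRNAs above the floor on all arrays and outside the set, by Pearson's r over the 8 arrays. For miR-378b these were miR-30a-5p (r = 0.95), miR-30c-5p (0.94) and miR-30e-5p (0.88), which share 1 seed. miR-30c-5p is also on the list of other metabolic miRNAs. The first lies at chr9:33233946-33233967 on the plus strand and the third at chr5:139637504-139637525 on the minus strand, while miR-30c-5p has a copy on each of these chromosomes.
miR-30a-5p: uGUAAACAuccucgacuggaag
miR-30c-5p: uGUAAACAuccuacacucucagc
miR-30e-5p: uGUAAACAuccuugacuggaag
miR-30a-5p was at -3.09, -3.29, -1.78 and -1.69 on the ACLT arrays and -2.83, -2.28, -2.14 and -2.96 on the sham arrays, so ACLT replicates 3 and 4 stood highest here too. The bright arrays, ACLT replicates 1 and 2 and sham replicate 4, stood lowest, as they did for miR-378b. The parts of muscle level and brightness in this likeness were not tested. For miR-107-3p the closest were let-7d-5p (r = 0.94), let-7g-5p (0.92) and miR-29a-3p (0.91). For miR-193a-3p they were miR-152-3p (r = 0.93), let-7b-5p (0.80) and miR-125b-5p (0.76), and for miR-103-3p miR-324-3p (r = 0.80), miR-3473 (0.78) and miR-126a-3p (0.77). Under the reported scaling the closest miRNAs outside the set were thus different for miR-103-3p and miR-107-3p. Other scalings were not examined for this. The r values were the highest of 74 and carry no test.

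Other miRNAs studied in fat or metabolism were taken from a list of 20. Of these, 12 were tested, 6 with a higher and 6 with a lower mean after ACLT, and 0 passed limma's adjusted threshold (0 also at an unadjusted p of 0.05, against 7.08% of all 113). Their median difference was -0.04. The smallest p-values belonged to miR-196b-5p, a Hox cluster miRNA (-0.30, SE 0.13), miR-34a-5p, a p53 target raised in obesity (0.58, SE 0.27), miR-143-3p, which promotes adipocyte differentiation (-0.30, SE 0.14), each at limma adjusted p = 0.645, and miR-22-3p (0.34, SE 0.21, limma adjusted p = 0.785). Of the remaining members of the list, miR-130b-3p, miR-33-5p, miR-148a-3p and miR-375-3p, of which miR-33 acts in cholesterol transport and miR-375 in pancreatic islets, were detected on 0 arrays. The liver miRNA miR-122-5p was detected on 0 of 4 ACLT and 1 of 4 sham arrays.

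**Figure D4:**
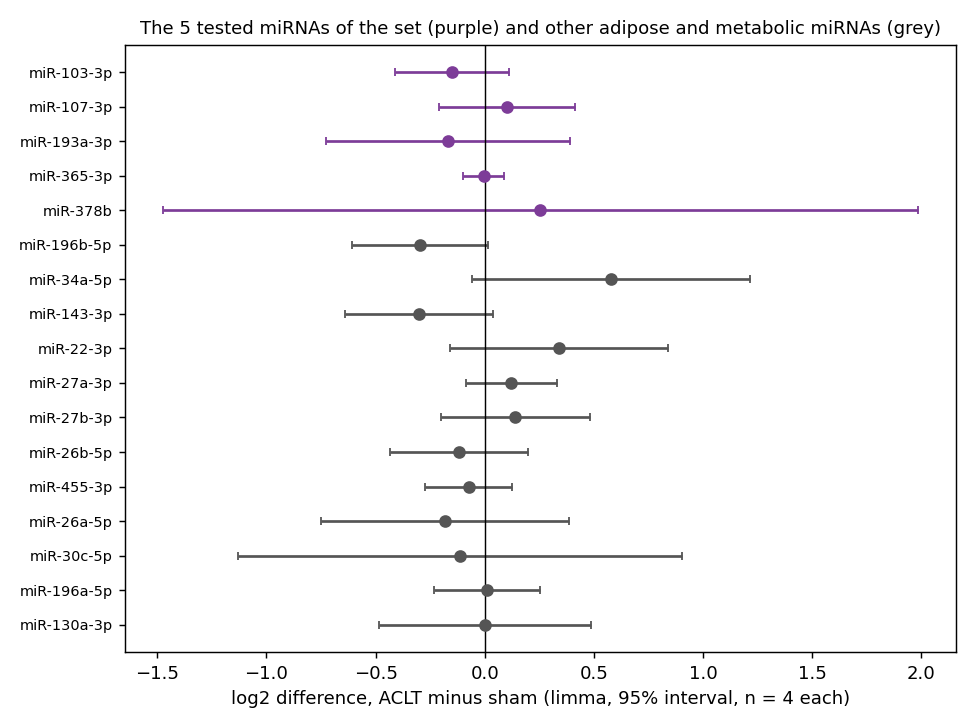
Log2 difference, ACLT minus sham (horizontal axis), with 95% interval from limma (n = 4 each), of the 5 tested miRNAs of the set and 12 other adipose and metabolic miRNAs. All intervals include 0, and that of miR-378b is the widest, from -1.47 to 1.98.

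The sign of most differences depended on how the arrays were scaled. Over all 113 miRNAs the median difference was -0.07 as reported, 0.25 with the 75th percentile over all probes, 0.06 without muscle probes in the percentile, 0.19 with no scaling, 0 with quantile normalization and -0.25 with labelling spike-in scaling. miR-378b stayed positive under all 5 other scalings (0.09 to 0.63) and miR-107-3p under 4 of them (-0.07 with spike-in scaling). miR-103-3p ran from -0.32 to 0.23 and miR-193a-3p from -0.34 to 0.21, both with changes of sign, and 0 of these values passed limma's adjusted threshold.

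**Figure D5:**
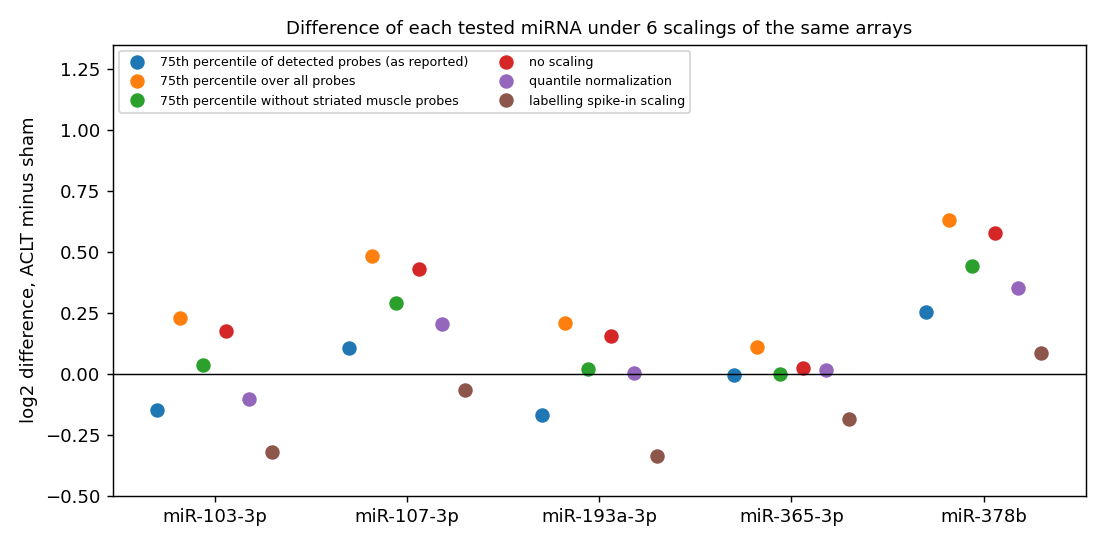
Log2 difference, ACLT minus sham (vertical axis), of the 5 tested miRNAs under the reported scaling and 5 others. The points of miR-103-3p and miR-193a-3p lie on both sides of 0, and those of miR-378b lie between 0.09 and 0.63.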

How the data were processed

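The authors' scanner files held spot intensities, read with Agilent Feature Extraction 10.7.3.1, per the file headers. The processed signal, a linear intensity, had been background-subtracted and not scaled between arrays, per the file headers. Other columns used were 0 or 1 flags of background and detection. The deposited value table of the authors held the scanner software's total intensity per miRNA unscaled and uncentred (largest difference 0; column medians 0.1). Labels describe Cy3-labelled cRNA from 50 ng of RNA; the grid names rn4.

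Outlier spots (9.01% to 11.1%) and control spots were left out, and spots of a probe averaged. A probe was well above background where at least 0.5 of its spots were. Arrays were divided by the 75th percentile over 136 probes well above background on all arrays, set to a floor of 0.0449 (the median over arrays of the lowest such signal) and log2-transformed. The brightest probe represented a miRNA. ACLT and sham were compared with R 4.3.3 and limma 3.58.1 (lmFit, eBayes, no covariate); steps were tested on simulated data. Correlations used exact two-sided permutation over pairings. Members, lists and tests were chosen with earlier results of these data known. Named are all members, the 4 smallest p-values of the metabolic list, the 3 miRNAs most like each member and examples of muscle miRNAs; miR-499-5p, the other arms and the miRNAs beside miR-378b in the slope fit were named after their values were seen. Saturated spots numbered 0; precision is limited by the number of arrays. Alternatives were other scalings, probe summaries, value sources, filters, floors, variance models, blocks and left-out arrays.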

Additional observations from a re-analysis of the deposited data

Results flagged for a closer look

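In 2 of 11 group values examined, an array stood apart from the other 3 of its group; chance flags about 1 in 20, or 0.55 here. For miR-103-3p, ACLT replicate 1 lay at -2.08 against -1.85 to -1.81, a gap of 0.843 of the range. For miR-365-3p, sham replicate 4 lay at -4.45 while the other 3 sham arrays were at the floor of -4.48. The gap is then the whole range (1) for any value above the floor, and its size depends on the floor. The chance rate does not apply to this flag.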

How the results depend on the processing

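No member passed limma's adjusted threshold under any alternative run. The count of called miRNAs stayed at 0 in 26 of 28 alternatives. It was 1 with the authors' value table (miR-466d) and 8 in slide row 1 alone. With the replicate block the count was 0 (4 at an unadjusted p under 0.05) and the differences were the same (-0.15 for miR-103-3p); the deviations of same-numbered arrays correlated at -0.19, 0.59, 0.80 and -0.41, and 2 of 4 replicate numbers matched best with themselves, so the arrays were treated as unpaired.

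Signs turned as follows; the cause was not tested. Under the all-probe percentile miR-103-3p was 0.23, miR-193a-3p 0.21 and miR-365-3p 0.11; without muscle probes they were 0.037 and 0.019 (miR-103-3p, miR-193a-3p); unscaled, all 3 were 0.17, 0.16 and 0.025; by the values of the authors' table they were 0.14, 0.16 and 1.72; within slide row 2 miR-103-3p and miR-193a-3p were 0.042 and 0.17. With quantile normalization miR-193a-3p was 0.0043 and miR-365-3p 0.014, and with the Feature Extraction summary miR-365-3p was 0.26. miR-107-3p was -0.066 with spike-in scaling and -0.021 with normexp on median signals, and miR-378b -1.03 in slide row 1. With 1 array left out the ranges were -0.19 to -0.06 (miR-103-3p), -0.0019 to 0.20 (miR-107-3p), -0.30 to 0.022 (miR-193a-3p), -0.0072 to 0 (miR-365-3p) and -0.17 to 0.76 (miR-378b).

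Correlations moved with the scaling and the probe summary. With the muscle level, miR-103-3p had r of 0.63 without muscle probes, 0.072 with the mean of probes and -0.91 with quantile normalization; miR-107-3p 0.30 without muscle probes; miR-193a-3p -0.81 with quantile normalization and -0.89 with spike-in scaling; miR-378b 0.81 with quantile normalization and 0.81 with the mean of probes (adjusted p = 0.0304 and 0.0496) but 0.72 under the all-probe percentile and 0.63 with spike-in scaling, which did not pass (exact permutation, adjusted p = 0.0888 and 0.108). With brightness, miR-103-3p, miR-107-3p and miR-193a-3p had 0.84, 0.89 and 0.73 under the all-probe percentile, 0.98, 0.99 and 0.92 unscaled, and 0.19, 0.85 and 0.19 with quantile normalization; spike-in scaling gave miR-103-3p 0.51 and miR-193a-3p 0.35, and the mean of probes miR-103-3p -0.83 and miR-107-3p 0.084. For miR-378b it was -0.81 with quantile normalization and -0.85 with the mean of probes, which passed, and -0.43 under the all-probe percentile and -0.03 unscaled, which did not (exact permutation, adjusted p = 0.389 and 0.935). The mean of probes was divided by the percentile that measures brightness, so a negative r is partly built in there. miR-103-3p with miR-107-3p had 0.97 under the all-probe percentile, 0.99 unscaled and 0.89 with spike-in scaling, all of which passed. With 1 array left out, r with the muscle level ran from 0.73 to 0.87 for miR-378b, and that of miR-103-3p with miR-107-3p from -0.071 to 0.12. Members below about 17 units (miR-193b-3p, miR-378a-5p, miR-365-3p on 5 arrays) are limited by signal over background.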
